A study of Homo sapiens with 21 samples.

Results

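The members described here were the protein-coding genes of 7 enzyme families that modify and clear foreign compounds: the cytochromes P450 (CYP), aldo-keto reductases (AKR), aldehyde dehydrogenases (ALDH), glutathione S-transferases (GST), UDP-glucuronosyltransferases (UGT), sulfotransferases (SULT) and carboxylesterases (CES). They were chosen by gene name on chromosomes 1 to 22, without CYP1A1, CYP1B1, CYP51A1, CYP20A1, ALDH1L2 and ALDH18A1, which gave 135 of the 58233 genes in the count table. The rule reads gene names and positions, not counts. There were 51 CYP, 19 UGT, 18 GST, 17 ALDH, 13 SULT, 12 AKR and 5 CES genes.

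RNA-seq counts were available for 7 cloned lines of Panc-1, a human pancreatic ductal carcinoma cell line, with 3 repeats per clone and 21 libraries in all. Clones ATUX8H and ATUX9D grew in 8 µM ATUX, clones SMAP8D, SMAP9C and SMAP6G in 8 µM SMAP, and clones Sor6G and Sor9H in 8 µM Sorafenib. ATUX and SMAP are activators of protein phosphatase PP2A and Sorafenib is a kinase inhibitor. Per the labels' protocols, each drug's culture was adapted by passage in rising drug for months and cloned by dilution, and qRT-PCR results helped to choose the clones that were sequenced. Each clone is thus 1 selected line that was kept in its drug, so that the drug present, the adaptation and the chance make-up of a clone cannot be told apart. Naive Panc-1 cells were not analysed here, and every difference below is between resistant clones. The labels do not say whether the 3 repeats of a clone were separate cultures.

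Foreign compounds are usually first oxidised, reduced or hydrolysed, by CYP, ALDH, AKR and CES enzymes among others, and then joined to a polar group by GST, UGT or SULT enzymes so that they can leave the cell. Many of the same enzymes act on the cell's own steroids, bile acids, retinoids, vitamin D and lipid aldehydes. The liver and the gut hold the highest levels of most CYP and UGT enzymes, whereas GSTP1, several ALDH and several AKR enzymes are common in epithelial tumours.

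Library totals lay between 21022621 and 27691256 counts, with a median of 23026429. Of the 9 duct markers examined, 7 reached 1 CPM (counts scaled to a common library total) in a clone, and CFTR had no count. Summed duct marker levels were 11340 and 7514 CPM in ATUX clones, 1522, 1978 and 3142 CPM in SMAP clones, and 3881 and 4921 CPM in Sorafenib clones. KRT8, KRT18 and KRT19 made up most of each sum, and the other duct markers differed in their order. EPCAM was at 8.29 and 2.84 CPM in ATUX clones, 2.47, 1.59 and 1.84 CPM in SMAP clones, and 2.36 and 3.53 CPM in Sorafenib clones. SOX9 was lowest in SMAP clones, at 87.2, 70.6 and 71.1 CPM. It was at 158.9 and 147.2 CPM in ATUX clones and at 164.6 and 145.6 CPM in Sorafenib clones. MUC1 was highest in SMAP clones, at 33.3, 39.3 and 27.2 CPM beside 21.7 and 13.2 CPM in ATUX clones. KRT7 was highest in Sorafenib clones, at 30.3 and 29.6 CPM beside 16.7 and 10.4 CPM in ATUX clones. Of the 7 hepatocyte markers 2 reached 1 CPM, while ALB had 7 counts over all libraries, and no acinar, endocrine, enterocyte or endothelial marker reached 1 CPM. Of the 6 fibroblast markers 5 reached 1 CPM, and they summed to 41.7 and 48.8 CPM in ATUX clones, 177.3, 175.7 and 62.4 CPM in SMAP clones, and 14.6 and 11.8 CPM in Sorafenib clones. Their part in the results below was not tested.

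Many members were at trace levels in these cells. Of the 135 members 27 had no count in any library and 38 had between 1 and 20 counts over all 21 libraries, while 44 averaged at least 1 CPM over the clones. The UGT genes showed this most plainly, with 12 of 19 at 0 counts, the other 7 at 1 to 20 counts and none abundant enough to be tested. Genes of the UGT1A cluster share exons, as the copies SULT1A3 and SULT1A4 share their sequence, and reads that fitted several genes may not have been counted, so their levels are uncertain. UGT1A10, a glucuronosyltransferase of the gut, and UGT2B7, which glucuronidates many drugs, were the UGT genes with the highest level per length. UGT1A10 had 1 count in ATUX clones, 0 in SMAP clones and 13 in Sorafenib clones.

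Per kilobase of gene model, the glutathione S-transferases were the most abundant family in every clone. Their summed level was 238.5 and 220.7 CPM per kb in ATUX clones, 281.4, 245.6 and 255.0 in SMAP clones, and 218.8 and 252.9 in Sorafenib clones. GSTP1, which conjugates glutathione to electrophiles, led all members at a mean of 145.6 CPM per kb, ahead of GSTO1 at 54.4, ALDH3A2 at 29.7, AKR7A2 at 29 and AKR1B1 at 25.7 CPM per kb. The summed level of the carboxylesterases separated the drugs, with 40.1 and 59.2 CPM per kb in ATUX clones, 15.9, 20.5 and 13.9 in SMAP clones, and 10.2 and 9.71 in Sorafenib clones. The 51 CYP genes together gave 23.7 and 19.9 CPM per kb in ATUX clones, 28.6, 28.7 and 28.3 in SMAP clones, and 16.6 and 16.2 in Sorafenib clones, so that for this family too the 3 drugs did not overlap.

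**Figure D1:**
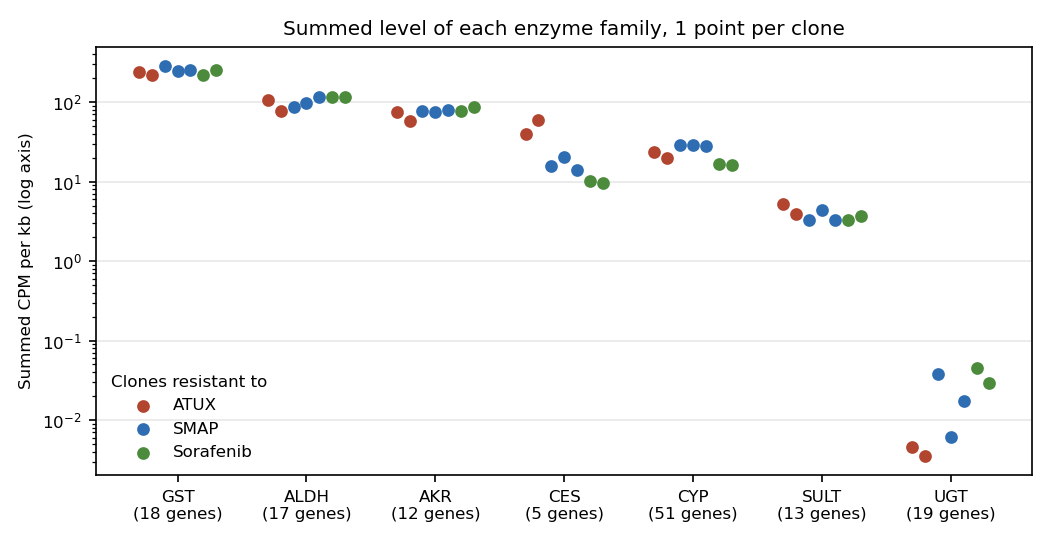
Summed level of each enzyme family in each of the 7 clones, in CPM per kb of gene model on a log axis. Points are single clones coloured by drug; the CES points of the ATUX clones, at 40.1 and 59.2, lie above all others of that family, and the UGT points lie below 0.05.

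For the drug comparisons the 3 libraries of a clone were summed, so that clones are the samples (2 ATUX, 3 SMAP and 2 Sorafenib), and edgeR's quasi-likelihood test was adjusted by the Benjamini-Hochberg method over all 18613 genes tested, of which 68 were members. A gene was called at an adjusted p under 0.05, and a p in parentheses without further words is this adjusted p. Levels below are CPM of the summed libraries, as mean ± SD over clones, and log2 fold changes are given ± SE, the first-named drug over the second. The ATUX and SMAP comparisons with Sorafenib share the Sorafenib clones.

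In ATUX against SMAP clones 8 of the 68 members tested were higher and 4 lower, against 5.27% of all genes tested higher and 5.06% lower. In ATUX against Sorafenib clones 8 were higher and 12 lower, against 13.3% and 12.5% of all genes. In SMAP against Sorafenib clones 10 were higher and 15 lower, against 16.8% and 17.7% of all genes. Higher members were 11.8% of those tested in ATUX against SMAP, above the share of all genes, whereas the lower members there (5.88%) and the higher members against Sorafenib (11.8% for ATUX, 14.7% for SMAP) were near or under the background. The lean toward higher members in ATUX against SMAP depended on the test and cut. At an unadjusted p under 0.05, 13 members were higher and 16 lower there, and DESeq2 called 9 higher and 13 lower. Lower members against Sorafenib were 17.6% for ATUX and 22.1% for SMAP. The median absolute log2 fold change of the members tested was 0.859, 0.882 and 0.872 in the 3 comparisons, where all genes tested had 0.370, 0.547 and 0.557. Members and all genes were not matched for abundance here, and the part of low counts in this gap was not tested.

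**Figure D2:**
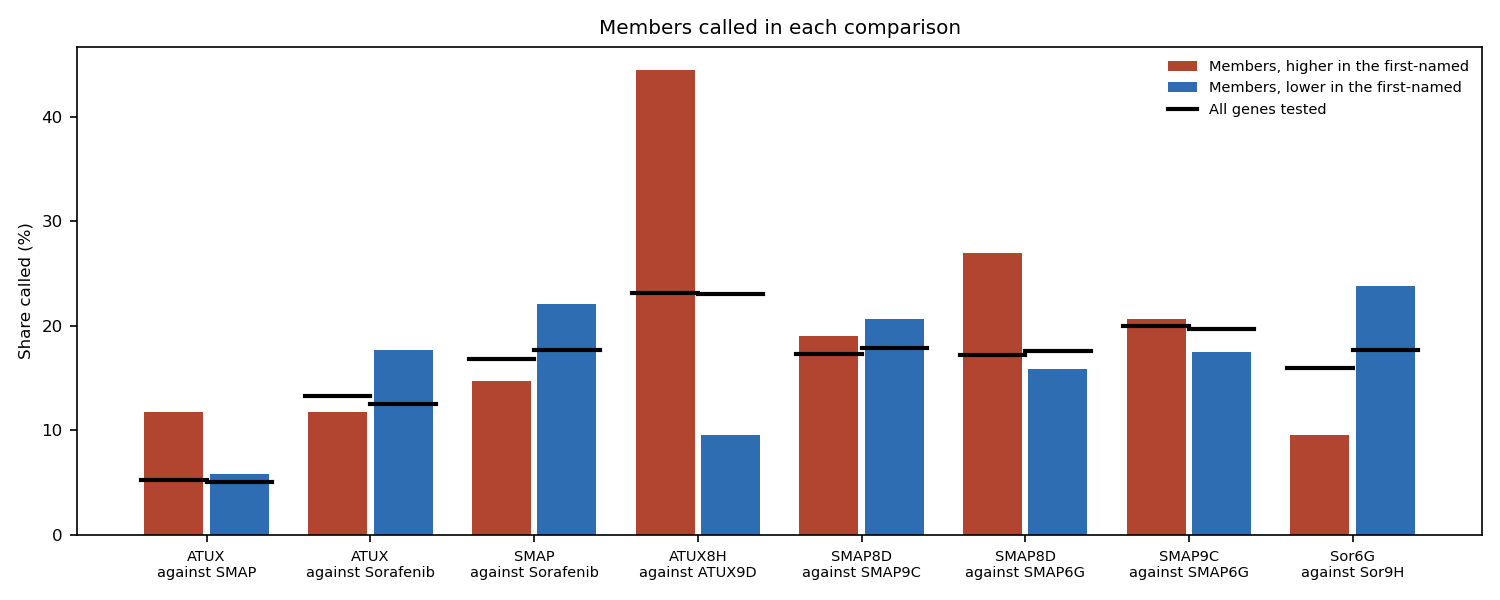
Share of the members tested that were called higher (left bar) or lower (right bar) in the first-named drug or clone, in percent, for the 8 comparisons. Black lines mark the share of all genes tested; the largest excess is in ATUX8H against ATUX9D, where 44.4% of members were higher against 23.1% of all genes.

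CES1, the main liver carboxylesterase, which hydrolyses ester drugs and lipid esters, separated all 3 drugs. It stood at 92.2 and 152.7 CPM in clones ATUX8H and ATUX9D, at 26.9, 40.7 and 19.8 CPM in SMAP8D, SMAP9C and SMAP6G, and at 1 count in each Sorafenib clone. The 6 ATUX libraries lay between 75 and 191.5 CPM, the 9 SMAP libraries between 18.7 and 43.1 CPM, and the Sorafenib libraries at or below 0.0449 CPM, with no overlap between drugs. In these bulk libraries, fewer cells with a transcript and less of it per cell cannot be told apart. Scaled for depth, the counts were 8660-fold higher in ATUX than in Sorafenib clones (95% counting interval 2400 to 71500) and 2080-fold higher in SMAP than in Sorafenib clones (576 to 17200), with adjusted p = 0.000881 and 0.000688. ATUX clones exceeded SMAP clones by 2.09 ± 0.33 (adjusted p = 0.0171), and without ATUX9D (adjusted p = 0.0511) or SMAP8D (0.0576) that difference was no longer called. The gene lies on chromosome 16 at 55802851 to 55833337, minus strand (GRCh38), beside the near-identical pseudogenes CES1P1 and CES1P2, which took 2 and 21 counts in all libraries together. The 23 tested genes within 1 Mb of CES1 had a median log2 fold change of 0.78 in ATUX against Sorafenib and 0.76 in SMAP against Sorafenib. All genes tested had 0.011 and 0.008. GNAO1, 1 of these neighbours, was at 19.2 and 7.14 CPM in ATUX clones and 12.7, 31.7 and 11.7 CPM in SMAP clones. In Sorafenib clones it was at 0.387 and 0.445 CPM, and it was called higher in both comparisons (edgeR, adjusted p = 0.0073 and 0.0035).

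The other carboxylesterases did not share that pattern. CES2, the intestinal carboxylesterase, averaged 33.9 ± 3.2 CPM in ATUX clones, 31.1 ± 0.6 CPM in SMAP clones and 45.9 ± 0.5 CPM in Sorafenib clones. Against Sorafenib its log2 difference was -0.42 ± 0.12 in ATUX clones (adjusted p = 0.0391) and -0.56 ± 0.10 in SMAP clones (adjusted p = 0.0086), both called lower. The ATUX call was lost without ATUX9D, either Sorafenib clone or any 1 of the SMAP clones (p 0.0591 to 0.156 after adjustment), and the SMAP call without Sor6G (0.053) or Sor9H (0.0519). CES4A averaged 6.93 CPM in ATUX clones, 4.35 CPM in SMAP clones and 5.67 CPM in Sorafenib clones and was not called between drugs.

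**Figure D3:**
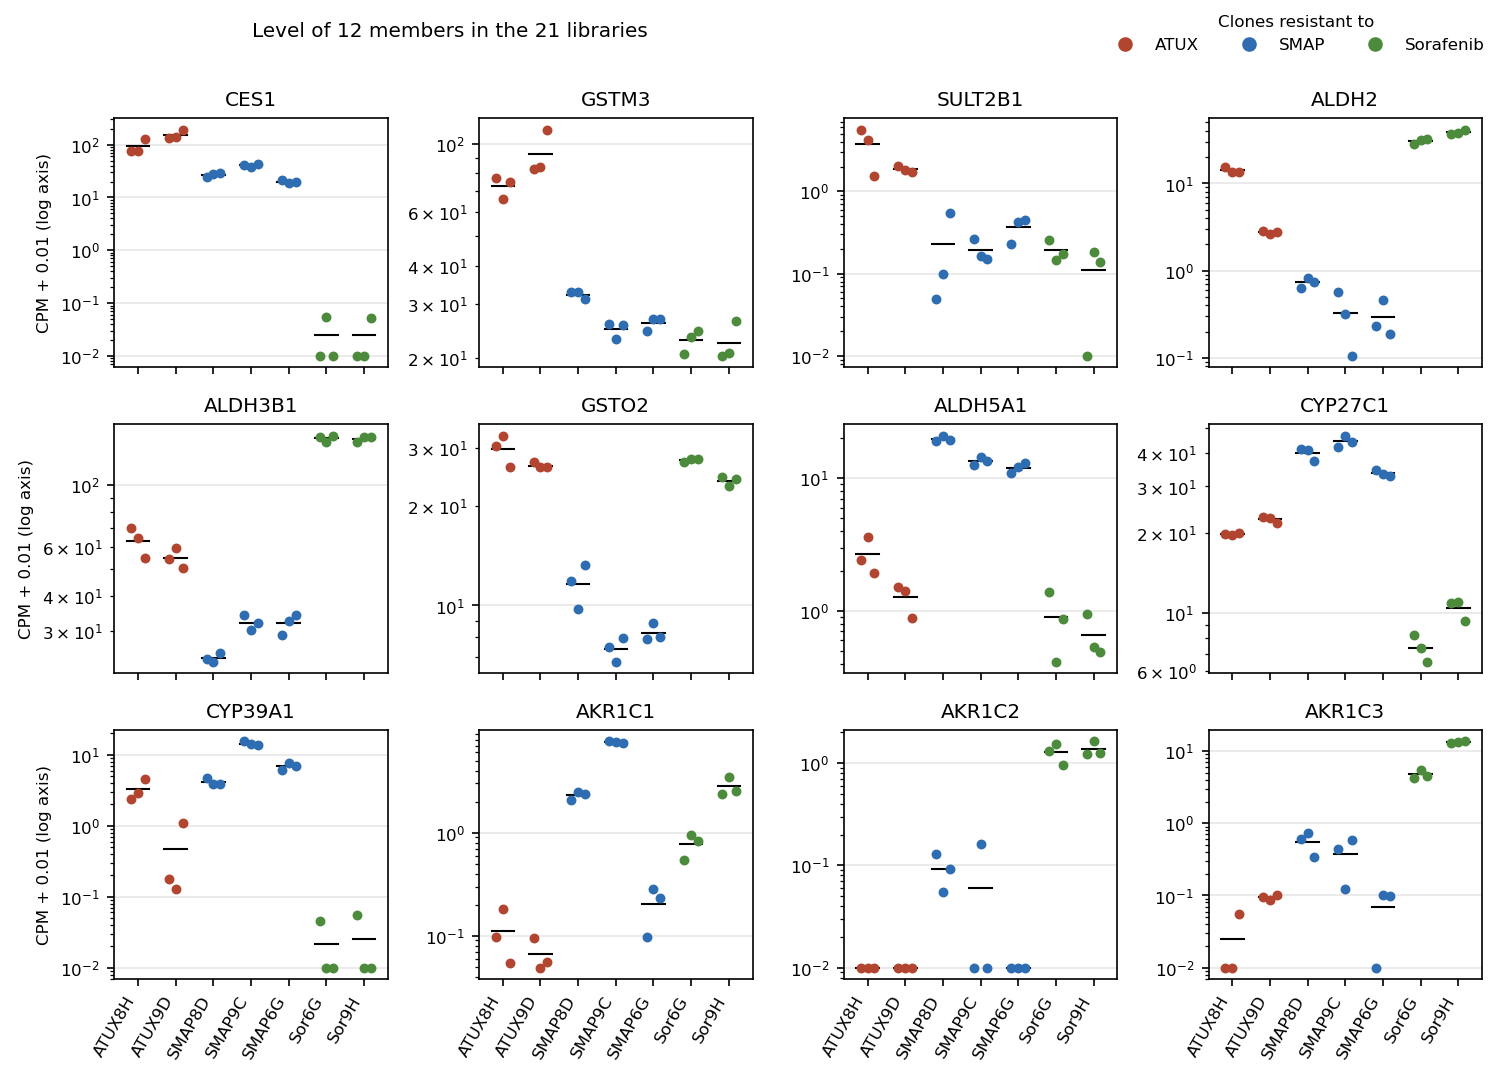
CPM + 0.01 (log axis, a scale of its own in each panel) of 12 members in the 21 libraries, with clones in the order ATUX, SMAP, Sorafenib. Points are libraries and black lines are clone means; CES1 and CYP39A1 sit at the bottom in both Sorafenib clones, and AKR1C2 and AKR1C3 are highest there.

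Among the aldehyde dehydrogenases, ALDH2 was lowest and ALDH5A1 highest in SMAP clones. ALDH2, the mitochondrial enzyme that clears acetaldehyde, stood at 14 and 2.73 CPM in ATUX clones, at 0.717, 0.329 and 0.284 CPM in SMAP clones, and at 30.7 and 39.1 CPM in Sorafenib clones. The 3 drugs did not overlap, and the ATUX clones lay far apart from each other. In ATUX against Sorafenib the log2 fold change of ALDH2 was -2.05, or -3.68 without ATUX8H and -1.31 without ATUX9D. With all clones edgeR did not call it, but DESeq2 did (adjusted p = 0.0094). The SMAP clones were lower than the Sorafenib clones, with a log2 fold change of -6.29 ± 0.78 (edgeR, adjusted p = 0.0028). ATUX exceeded SMAP by 4.24 ± 0.73 (adjusted p = 0.021), an estimate that was 2.61 without ATUX8H and was not called without SMAP9C (adjusted p = 0.0806) or SMAP6G (0.0528).

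ALDH5A1, the succinate semialdehyde dehydrogenase of the GABA pathway, was instead highest in SMAP clones. It stood at 2.64 and 1.26 CPM in ATUX clones, at 19.6, 13.6 and 12 CPM in SMAP clones, and at 0.920 and 0.652 CPM in Sorafenib clones. Every SMAP library, from 10.8 CPM upwards, lay above every other library, of which the highest was an ATUX8H library at 3.62 CPM. The difference was -2.94 ± 0.43 in ATUX against SMAP (adjusted p = 0.0134) and 4.26 ± 0.46 in SMAP against Sorafenib (adjusted p = 0.0018), and both calls held with any clone left out. Without ATUX8H the first was -3.59. In ATUX against Sorafenib the value was 1.32, or 0.68 without ATUX8H and 1.75 without ATUX9D. With all clones edgeR did not call it, but DESeq2 did (adjusted p = 0.0126).

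ALDH3B1, which oxidises medium and long-chain lipid aldehydes, and ALDH1B1, a mitochondrial relative of ALDH2, also differed between drugs. ALDH3B1 was at 62.6 and 54.5 CPM in ATUX clones, 23.8, 32.3 and 31.9 CPM in SMAP clones, and 148.1 and 149.0 CPM in Sorafenib clones. Its log2 fold changes were 1.02 ± 0.15 in ATUX against SMAP (adjusted p = 0.0138), lost without ATUX8H (0.0503), -1.33 ± 0.17 in ATUX against Sorafenib (0.0048) and -2.34 ± 0.15 in SMAP against Sorafenib (0.00067). ALDH1B1 averaged 37.8 ± 7.1 CPM in ATUX clones, 26.9 ± 2.7 CPM in SMAP clones and 13.0 ± 1.6 CPM in Sorafenib clones. It was higher than in Sorafenib clones by 1.56 ± 0.19 in ATUX clones (0.0043) and by 1.05 ± 0.17 in SMAP clones (0.0060). Its ATUX against SMAP value of 0.51 was not called by edgeR.

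Of the remaining ALDH genes, ALDH3A2, the fatty aldehyde dehydrogenase of the endoplasmic reticulum, averaged 87.1 ± 29.3 CPM in ATUX clones, 213 ± 69 CPM in SMAP clones and 265 ± 5 CPM in Sorafenib clones. In ATUX against SMAP its log2 fold change was -1.27, which edgeR did not call with all clones. ALDH3A2 was called there by DESeq2 (adjusted p = 0.000825), by edgeR with size factors from DESeq2 (0.0487) and by edgeR without the third ATUX libraries (0.0455). It was lower in ATUX than in Sorafenib clones, with a log2 fold change of -1.59 ± 0.33 (edgeR, adjusted p = 0.0188), but not when ATUX8H, Sor6G or Sor9H was left out (0.0532 to 0.0793). ALDH4A1, an enzyme of proline breakdown, was higher in ATUX than in Sorafenib clones by 0.89 ± 0.20 (0.0217), lost without ATUX9D, Sor6G or Sor9H (0.0837 to 0.102). ALDH6A1, of valine breakdown, was lower in SMAP than in Sorafenib clones, with a log2 fold change of -1.24 ± 0.34 (0.0318), a call lost without any 1 of those 5 clones (0.0577 to 0.146). ALDH1L1, a folate enzyme, was lower in ATUX than in Sorafenib clones, with a log2 fold change of -6.46 ± 1.68 (0.035), but its Sorafenib clones differed widely, at 0.307 CPM in Sor6G and 7.62 CPM in Sor9H, and without Sor9H the value was -2.80 (0.126). The call was also lost without either ATUX clone, SMAP8D or SMAP6G (0.0504 to 0.154). ALDH1A2, which makes retinoic acid, was called lower against Sorafenib in both ATUX and SMAP clones at 93 counts over all libraries. Over the 16 ALDH genes tested, 2 were higher and 1 lower in ATUX against SMAP, 2 higher and 4 lower in ATUX against Sorafenib, and 2 higher and 4 lower in SMAP against Sorafenib. Those were 18.8%, 37.5% and 37.5% of the 16, beside 10.3%, 25.8% and 34.5% of all genes tested.

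Of the 9 aldo-keto reductases tested, edgeR called none in ATUX against SMAP, where 3 were lower at an unadjusted p under 0.05 and DESeq2 called 2 lower. Against Sorafenib 3 were lower and 0 higher in ATUX and in SMAP clones, 33.3% of those tested, beside 25.8% (ATUX) and 34.5% (SMAP) of all genes. At an unadjusted p under 0.05, 0 were higher and 6 lower in ATUX clones, and 1 higher and 3 lower in SMAP clones. DESeq2 called 0 higher in either, with 5 lower in ATUX clones and 2 lower in SMAP clones. The 3 called lower by edgeR were AKR1C2 and AKR1C3, which reduce steroid hormones and carbonyl compounds, and AKR1B10, a retinal and aldehyde reductase. AKR1C1, AKR1C2 and AKR1C3 are neighbours on chromosome 10 and close copies of each other, so reads may have been split between them or dropped. How alike they are at their starts is shown by their promoter windows, 250 bases before to 50 after the start, in RefSeq's sequences for GRCh38.p14. AKR1C1 is at chr10:4963165-4963464, plus strand, AKR1C2 at chr10:5003808-5004107, minus strand, and the AKR1C3 window more like that of AKR1C1, of 2 listed, at chr10:5048531-5048830, plus strand. Capitals mark ATTGG, the reverse complement of CCAAT.
AKR1C1: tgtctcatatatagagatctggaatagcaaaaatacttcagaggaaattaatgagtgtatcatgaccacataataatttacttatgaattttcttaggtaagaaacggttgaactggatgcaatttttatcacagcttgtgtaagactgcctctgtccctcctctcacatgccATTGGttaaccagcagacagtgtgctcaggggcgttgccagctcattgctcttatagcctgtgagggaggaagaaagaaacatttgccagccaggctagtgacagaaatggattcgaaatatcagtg
AKR1C2: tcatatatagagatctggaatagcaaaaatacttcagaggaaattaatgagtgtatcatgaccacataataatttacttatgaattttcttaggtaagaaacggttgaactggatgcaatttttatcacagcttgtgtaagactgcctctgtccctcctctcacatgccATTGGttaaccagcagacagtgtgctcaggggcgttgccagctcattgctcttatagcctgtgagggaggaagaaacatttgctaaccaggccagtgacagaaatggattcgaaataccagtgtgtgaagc
AKR1C3: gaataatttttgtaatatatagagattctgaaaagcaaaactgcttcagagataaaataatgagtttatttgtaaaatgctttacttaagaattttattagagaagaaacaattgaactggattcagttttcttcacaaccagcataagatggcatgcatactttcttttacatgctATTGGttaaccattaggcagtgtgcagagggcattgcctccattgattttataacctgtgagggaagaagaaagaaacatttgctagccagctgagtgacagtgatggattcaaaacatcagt
The windows were aligned with overhanging ends free of cost, and bases in gaps or overhangs were not counted. The AKR1C2 window then matched AKR1C1 at 288 of 292 aligned bases (98.6%), and the AKR1C3 window matched AKR1C1 at 227 of 291 (78%). The letters CCAAT, searched on both strands, occurred once in each of the 3 windows, as they did at least once in 34.6% of all 35116 windows of that length. TGACNNNGC, the antioxidant response element, occurred in none of the 3 and in 13.3% of all windows.

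AKR1C2 had 0 counts in all 6 ATUX libraries, 0.0828, 0.0572 and 0 CPM in SMAP clones, and 1.25 and 1.38 CPM in Sorafenib clones. Against a floor of 3 counts over the group it was at least 62.3-fold lower in ATUX than in Sorafenib clones (edgeR, adjusted p = 0.0102), and in SMAP clones it was lower, with a log2 fold change of -4.75 ± 0.79 (0.0086), or -5.42 without SMAP8D. AKR1C3 was at 0.0144 and 0.0839 CPM in ATUX clones, 0.538, 0.357 and 0.0597 CPM in SMAP clones, and 4.68 and 13.5 CPM in Sorafenib clones. It was lower than in Sorafenib clones, with a log2 fold change of -7.45 ± 1.28 in ATUX clones (0.0105) and of -4.82 ± 0.91 in SMAP clones (0.0096). With 1 clone left out these values ranged between -9.12 (without ATUX9D) and -6.52 (without Sor9H) and between -5.43 (without SMAP8D) and -3.87 (without Sor9H), and the SMAP call was lost without Sor9H (0.0574).

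AKR1C1, of nearly the same sequence as AKR1C2, differed widely between clones of 1 drug. It stood at 0.101 and 0.0559 CPM in ATUX clones, at 2.28, 7.66 and 0.194 CPM in SMAP8D, SMAP9C and SMAP6G, and at 0.746 and 2.83 CPM in Sorafenib clones. The range among SMAP clones enclosed both Sorafenib clones. edgeR did not call it between drugs, with log2 fold changes of -5.38 ± 1.68 in ATUX against SMAP (adjusted p = 0.0923), -4.47 ± 1.68 in ATUX against Sorafenib (0.0956) and 0.92 ± 1.26 in SMAP against Sorafenib (0.606). Both ATUX differences were called without SMAP6G (0.0341 and 0.0335) and by DESeq2 (0.0027 and 0.0216), and the third was -0.51 without SMAP9C.

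Of the abundant reductases, AKR1A1, a general aldehyde reductase, averaged 47.4 ± 7.7 CPM in ATUX clones, 57.8 ± 5.5 CPM in SMAP clones and 62.7 ± 1.6 CPM in Sorafenib clones. Its log2 differences had 95% intervals of -0.61 to 0.07 for ATUX against SMAP, -0.76 to -0.02 for ATUX against Sorafenib and -0.45 to 0.22 for SMAP against Sorafenib, with no call. AKR7A2, which reduces succinate semialdehyde and aflatoxin dialdehyde, averaged 52.9, 56.3 and 43.5 CPM in ATUX, SMAP and Sorafenib clones, and in SMAP against Sorafenib it just missed the threshold (0.37 ± 0.12, adjusted p = 0.0509; 0.0464 with size factors from DESeq2). AKR1B1, aldose reductase, averaged 73.1 ± 24.7 CPM in ATUX clones, 91.1 ± 10.3 CPM in SMAP clones and 119 ± 7 CPM in Sorafenib clones. Its ATUX against Sorafenib value of -0.69 ± 0.23 was not called by edgeR (adjusted p = 0.0677), but was called by DESeq2 (0.0411), without the third ATUX libraries (0.0412) and, at -1.10, without ATUX8H (0.0123). Between ATUX clones it was higher in ATUX8H than in ATUX9D by 0.72.

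GSTM3, a mu-class enzyme, set ATUX clones apart from all others, at 72.1 and 91.4 CPM in ATUX clones, 32, 25 and 26.1 CPM in SMAP clones, and 22.7 CPM in each Sorafenib clone. The lowest ATUX library had 65.9 CPM and the highest of the 15 others 32.8 CPM. It was higher in ATUX clones by 1.58 ± 0.16 against SMAP (edgeR, adjusted p = 0.0069) and by 1.86 ± 0.18 against Sorafenib (0.0028), and both calls held in every alternative fit. In SMAP against Sorafenib clones the difference was 0.28 ± 0.16 (0.216).

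Its neighbours GSTM2 and GSTM4 were instead highest in Sorafenib clones. GSTM2 averaged 1.67 ± 0.52 CPM in ATUX clones, 1.23 ± 0.31 CPM in SMAP clones and 6.62 ± 1.70 CPM in Sorafenib clones, and was lower than in Sorafenib, with a log2 fold change of -1.97 ± 0.39 in ATUX (adjusted p = 0.0148) and -2.43 ± 0.34 in SMAP (0.0036). GSTM4 averaged 12.6 ± 2.4, 12.9 ± 0.6 and 23.3 ± 2.2 CPM in ATUX, SMAP and Sorafenib clones, and was lower, with a log2 fold change of -0.87 ± 0.18 in ATUX (0.0172) and -0.86 ± 0.16 in SMAP (0.009). Without Sor9H neither the GSTM4 calls (0.0956 for ATUX, 0.0697 for SMAP) nor the GSTM2 call for ATUX (0.08) held, and for ATUX the same was true without ATUX9D (0.0595 for GSTM2, 0.0644 for GSTM4) and, for GSTM4, without Sor6G (0.051). GSTM2 overlaps GSTM4 and GSTM1 on the same strand, so that their reads may not be fully separated.

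GSTO2, an omega-class enzyme that reduces dehydroascorbate, was lowest in SMAP clones. It stood at 29.6 and 26.3 CPM in ATUX clones, 11.6, 7.43 and 8.27 CPM in SMAP clones, and 27.4 and 24.1 CPM in Sorafenib clones. The difference was 1.63 ± 0.21 in ATUX against SMAP (edgeR, adjusted p = 0.0113) and -1.50 ± 0.21 in SMAP against Sorafenib (0.0037), while ATUX and Sorafenib clones differed by 0.13 with a 95% interval that included 0 (0.703). Its neighbour on chromosome 10, GSTO1, was the reverse against Sorafenib, at 102 ± 6 CPM in SMAP clones and 70.3 ± 15 CPM in Sorafenib clones (0.54 ± 0.15, 0.0317), a call lost without Sor6G, SMAP8D or SMAP9C (0.0775 to 0.147). GSTA4, which conjugates 4-hydroxynonenal, was lowest in ATUX clones, at 4.31 ± 0.20 CPM against 8.46 ± 1.42 CPM in SMAP clones and 11.9 ± 2.3 CPM in Sorafenib clones. Its ATUX against Sorafenib value was -1.45 ± 0.24 (0.0094), lost without Sor9H (0.0571), and its ATUX against SMAP value of -0.96 ± 0.22 (0.0444) was lost with any 1 clone left out (0.0639 to 0.127) and without the third ATUX libraries (0.0692).

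GSTT2B, a theta-class gene with the near-identical copy GSTT2, averaged 2.08 ± 0.10 CPM in ATUX clones and 0.563 ± 0.213 CPM in SMAP clones (1.90 ± 0.35, edgeR adjusted p = 0.024), lost without ATUX8H, ATUX9D, Sor6G, Sor9H or SMAP9C (0.0506 to 0.0855). GSTK1, a mitochondrial and peroxisomal transferase, averaged 67.5 ± 13.1 CPM in SMAP clones and 138 ± 31 CPM in Sorafenib clones (-1.03 ± 0.25, 0.0201), lost without Sor9H, SMAP8D or SMAP9C (0.0618 to 0.129). The 23 tested genes within 1 Mb of GSTK1 had a median of -0.89 in that comparison. GSTP1, the most abundant member, averaged 231 ± 22 CPM in ATUX clones, 319 ± 33 CPM in SMAP clones and 266 ± 14 CPM in Sorafenib clones, and was not called by edgeR between drugs; DESeq2 called it lower in ATUX against SMAP clones (-0.46, adjusted p = 0.0394). The edgeR 95% intervals on the log2 scale were -0.77 to -0.13 for ATUX against SMAP, -0.53 to 0.16 for ATUX against Sorafenib and -0.05 to 0.58 for SMAP against Sorafenib. Of the 11 GST genes tested, 3 were higher and 1 lower in ATUX against SMAP, 1 higher and 3 lower in ATUX against Sorafenib, and 1 higher and 4 lower in SMAP against Sorafenib. Those were 36.4%, 36.4% and 45.5% of the 11, beside 10.3%, 25.8% and 34.5% of all genes tested.

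Of the 13 sulfotransferases 4 were tested and 1 was called. SULT2B1, which sulfates cholesterol and other hydroxysteroids, was at 3.78 and 1.83 CPM in ATUX clones, 0.221, 0.186 and 0.358 CPM in SMAP clones, and 0.187 and 0.104 CPM in Sorafenib clones. ATUX clones were higher by 3.47 ± 0.47 against SMAP (edgeR, adjusted p = 0.0121) and by 4.26 ± 0.58 against Sorafenib (0.0056), values that were 2.84 and 3.63 without ATUX8H. The third ATUX8H library had 1.53 CPM where the first and second had 5.60 and 4.22 CPM. SULT4A1, a brain-type member and the most abundant SULT per length, averaged 9.75 CPM in ATUX, 9.50 CPM in SMAP and 8.31 CPM in Sorafenib clones, without a call.

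**Figure D4:**
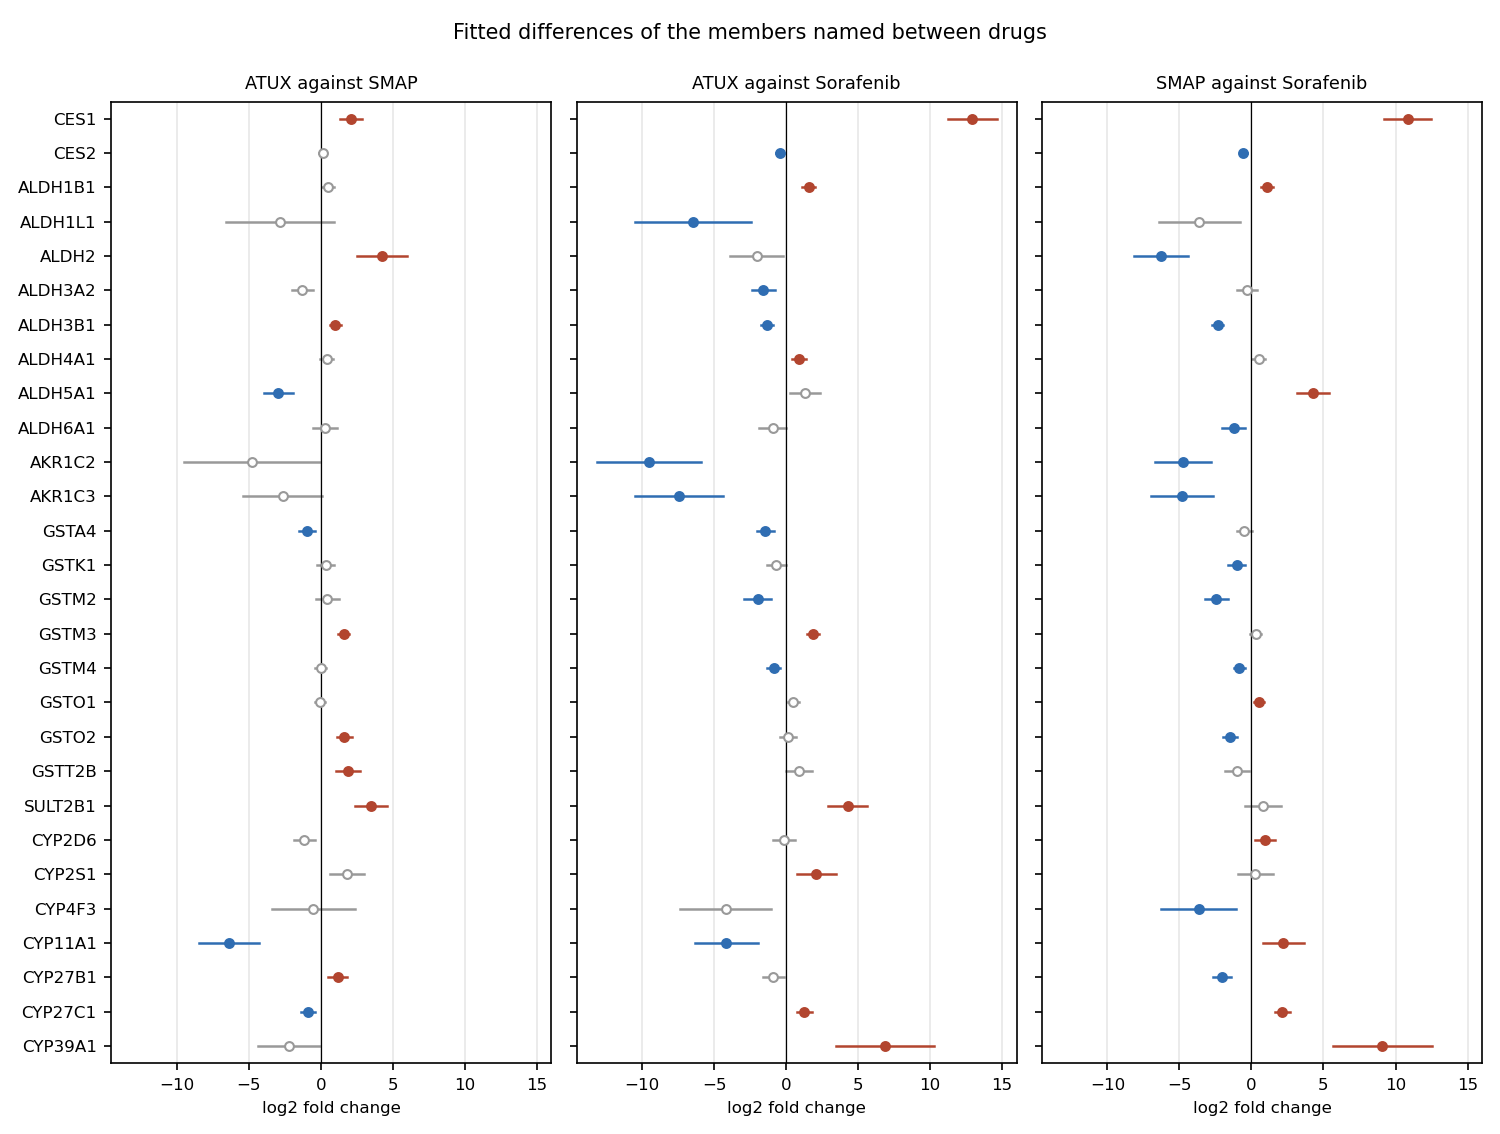
Log2 fold changes, first-named drug over the second, with 95% intervals, for the 28 members named between drugs, grouped by family. Filled red points were called higher, filled blue points lower and open grey points were not called; CES1 and CYP39A1 lie far right in both comparisons with Sorafenib, and AKR1C2 and AKR1C3 far left.

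Of the CYP families 1 to 4, which oxidise drugs and fatty acids, 33 genes were members and 13 were tested: edgeR called 0 in ATUX against SMAP, 1 higher in ATUX against Sorafenib, and 2 higher and 1 lower in SMAP against Sorafenib. The shares against Sorafenib were 7.69% and 23.1%, beside 25.8% and 34.5% of all genes tested. In ATUX against SMAP 1 was higher and 2 lower at an unadjusted p under 0.05, and DESeq2 called 1 higher, CYP2S1 (adjusted p = 0.0027), and 2 lower, CYP2D6 (0.0226) and CYP4V2 (8.06e-06). CYP2S1, a CYP of epithelial surfaces, averaged 4.09 ± 1.23 CPM in ATUX clones, 1.16 ± 0.24 CPM in SMAP clones and 0.956 ± 0.703 CPM in Sorafenib clones. Its ATUX against Sorafenib value of 2.10 ± 0.57 (edgeR, adjusted p = 0.0371) was 1.49 without Sor9H (0.114) and 3.15 without Sor6G, and the call was lost without any clone but Sor6G (0.0542 to 0.114). CYP2D6, which metabolises many drugs, averaged 1.08 ± 0.15 CPM in SMAP clones and 0.551 ± 0.088 CPM in Sorafenib clones (0.96 ± 0.29, 0.0435), lost with any 1 clone left out (0.0541 to 0.216); its near-identical copy CYP2D7 had 329 counts in all. CYP4F22, a skin ceramide hydroxylase, had 45 counts in SMAP clones and 1 in Sorafenib clones, a ratio of 30.6 (5.21 to 1230). CYP4F3, which inactivates leukotriene B4, was lower in SMAP than in Sorafenib clones, with a log2 fold change of -3.67 ± 1.09 (0.041), but of -2.09 without Sor9H (0.278), and the call was also lost without Sor6G, SMAP8D or SMAP9C (0.0544 to 0.119). CYP2R1, the vitamin D 25-hydroxylase, averaged 18.3, 15.8 and 14.9 CPM in ATUX, SMAP and Sorafenib clones and was not called.

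The CYP genes of sterol, steroid, retinoid and vitamin D metabolism numbered 11 tested: 1 was higher and 2 lower in ATUX against SMAP, 2 higher and 1 lower in ATUX against Sorafenib, and 4 higher and 2 lower in SMAP against Sorafenib. Those were 27.3%, 27.3% and 54.5% of the 11, beside 10.3%, 25.8% and 34.5% of all genes tested. CYP39A1, which hydroxylates 24-hydroxycholesterol on the way to bile acids, was at 3.22 and 0.433 CPM in ATUX clones, 4.17, 14.6 and 6.95 CPM in SMAP clones, and at 1 count in each Sorafenib clone. The counts were 127-fold higher in ATUX than in Sorafenib clones (95% counting interval 34.8 to 1050; edgeR, adjusted p = 0.0179) and 607-fold higher in SMAP than in Sorafenib clones (168 to 5020; 0.0055). The ATUX call was lost without Sor6G (0.0995) or Sor9H (0.109), and its log2 value of 6.86 was 4.78 without ATUX8H and 7.68 without ATUX9D. The SMAP call was lost without Sor9H (0.0513), and its log2 value of 9.07 was 8.46 without SMAP9C.

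CYP39A1 did not stand alone on its chromosome. The 11 tested genes within 1 Mb had a median log2 fold change of 3.69 in ATUX against Sorafenib and 4.85 in SMAP against Sorafenib, where all genes had 0.011 and 0.008. SLC25A27, a mitochondrial carrier gene that runs the other way from the same start region, was at 4.56 and 0.965 CPM in ATUX clones, 8.04, 27.3 and 17.4 CPM in SMAP clones, and 0.120 and 0.311 CPM in Sorafenib clones. PLA2G7, ADGRF1 and ADGRF5, also within 1 Mb, had no count in either Sorafenib clone. The CYP39A1 promoter window in RefSeq (GRCh38.p14, chr6:46652769-46653068, minus strand) is shown because 256 of its 300 bases also lie in the window of SLC25A27 on the plus strand. Capitals mark ATTGG, the reverse complement of CCAAT, which it holds once, and it has no TGACNNNGC on either strand.
CYP39A1: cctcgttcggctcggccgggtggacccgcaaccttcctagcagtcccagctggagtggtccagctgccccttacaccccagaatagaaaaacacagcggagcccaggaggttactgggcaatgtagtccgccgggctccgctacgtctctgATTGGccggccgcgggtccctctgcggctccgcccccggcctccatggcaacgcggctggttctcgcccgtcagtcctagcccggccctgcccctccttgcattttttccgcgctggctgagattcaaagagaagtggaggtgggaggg

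Of the CYP27 genes, CYP27C1, a retinoid desaturase, ordered the drugs without overlap, at 19.6 and 22.4 CPM in ATUX clones, 39.8, 45 and 33.8 CPM in SMAP clones, and 7.40 and 10.5 CPM in Sorafenib clones. It was higher than in Sorafenib clones by 1.25 ± 0.22 in ATUX (edgeR, adjusted p = 0.0103) and 2.14 ± 0.21 in SMAP (0.0014), and lower in ATUX than in SMAP, with a log2 fold change of -0.89 ± 0.20 (0.0389), the last being lost without either ATUX clone, SMAP8D or SMAP9C (0.0847 to 0.122). CYP27B1, the vitamin D 1-alpha-hydroxylase, averaged 1.91 ± 0.31 CPM in ATUX clones, 0.852 ± 0.092 CPM in SMAP clones and 3.54 ± 0.72 CPM in Sorafenib clones. It was lower in SMAP than in Sorafenib clones, with a log2 fold change of -2.06 ± 0.27 (0.003), whereas its ATUX against SMAP value of 1.18 ± 0.27 (0.0425) was lost with any 1 clone left out (0.0699 to 0.144) and without the third ATUX libraries (0.0925). METTL1 overlaps CYP27B1 on the same strand. CYP24A1, which degrades active vitamin D, was too low to be tested.

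The steroidogenic genes were scarce. CYP11A1, the cholesterol side-chain cleavage enzyme, had 2 counts in ATUX clones, 2.01, 1.14 and 0.850 CPM in SMAP clones, and 0.307 and 0.267 CPM in Sorafenib clones. The counts were 96.1-fold lower in ATUX than in SMAP clones (26.4 to 798; edgeR, adjusted p = 0.012), with a log2 value that lay between -9.56 (without ATUX8H) and -5.44 (without ATUX9D). They were 20.5-fold lower in ATUX than in Sorafenib clones (5.32 to 175; 0.021), lost without ATUX9D, Sor6G or Sor9H (0.0655 to 0.0715). In SMAP against Sorafenib CYP11A1 was higher by 2.21 ± 0.60 (0.03), a call lost without either Sorafenib clone, SMAP8D or SMAP9C (0.0576 to 0.157). The 36 tested genes within 1 Mb of CYP11A1 had a median of -0.86 in ATUX against SMAP. CYP19A1, aromatase, had 1 count in SMAP clones and 55 in Sorafenib clones, a ratio of 80.9 (13.9 to 3250; 0.0061). CYP7B1, an oxysterol hydroxylase, was higher in SMAP than in Sorafenib clones by 2.92 ± 0.82 (0.0338), lost without either Sorafenib clone, SMAP8D or SMAP6G (0.0666 to 0.157). CYP26B1, which degrades retinoic acid, averaged 22.7, 19.3 and 21.2 CPM in ATUX, SMAP and Sorafenib clones and was not called.

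**Figure D5:**
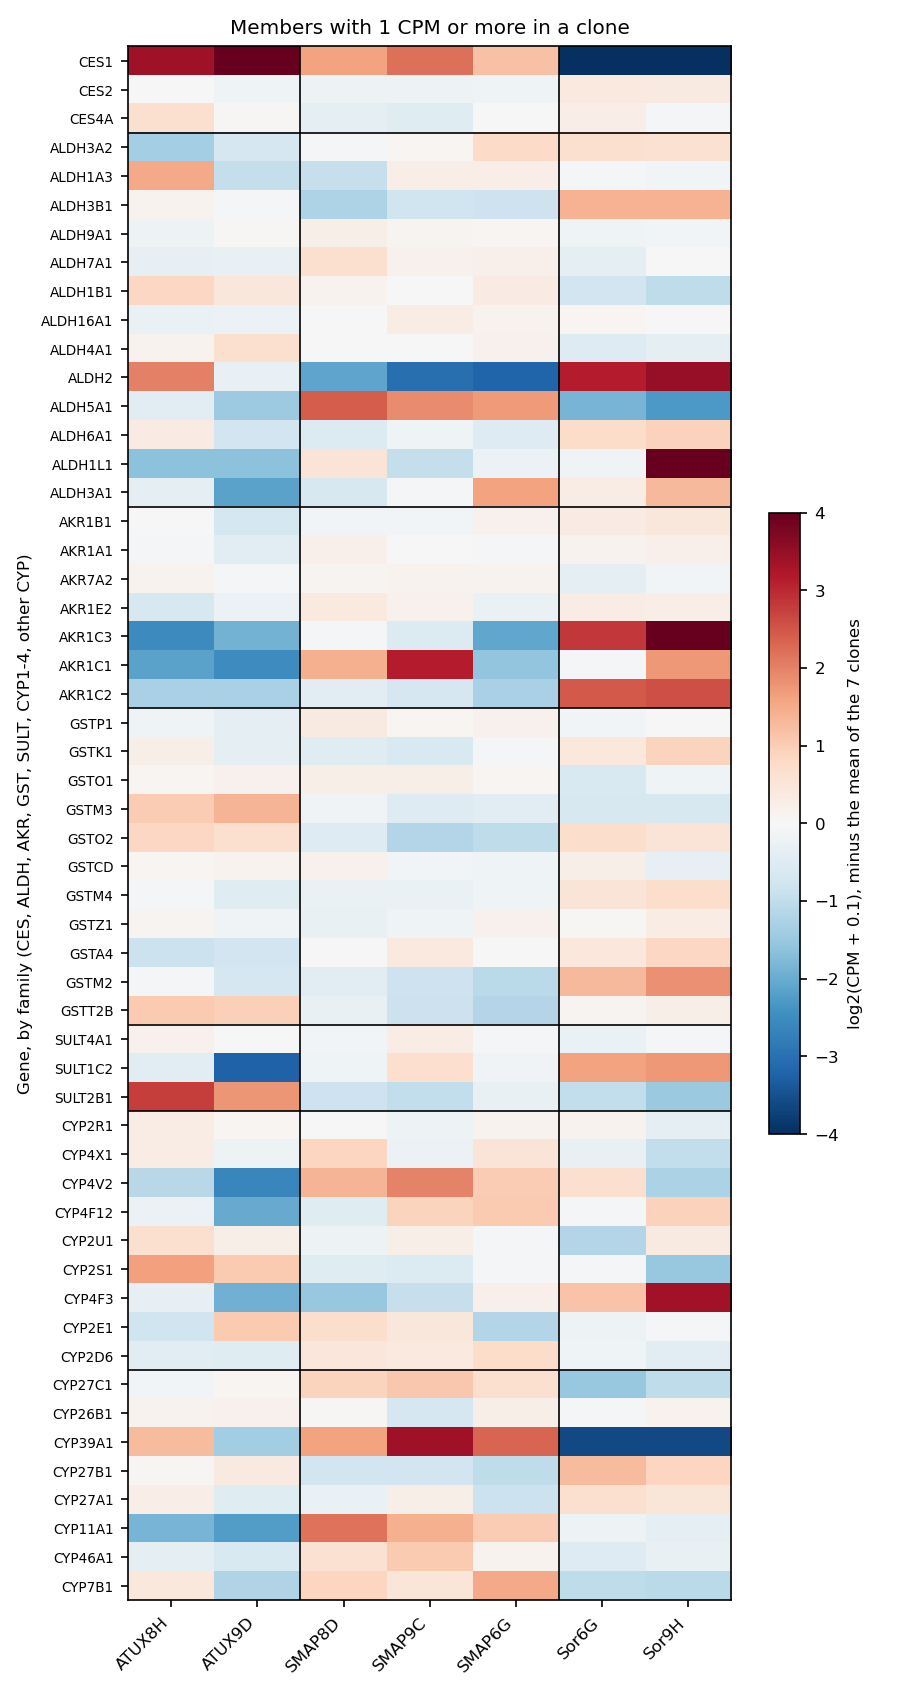
Level of the 54 tested members that reached 1 CPM in a clone, as log2(CPM + 0.1) minus the mean of the 7 clones, with colours cut at 4 on either side. Rows are genes by family and columns clones; besides the drug-wide patterns of CES1, ALDH2, ALDH5A1, AKR1C3 and CYP39A1, single clones stand out, such as Sor9H for ALDH1L1 and CYP4F3.

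Clones resistant to 1 drug were compared over their 3 libraries each, in a fit of all 21 libraries with 16504 genes tested, 63 of them members; p-values here measure the spread between repeats, which may be technical. In ATUX8H against ATUX9D 28 members were higher and 6 lower, where 23.1% of all genes tested were higher and 23.0% lower, so that the higher members were 44.4% of those tested and the lower 9.52%. They came from most families, with 8 of 16 ALDH, 6 of 10 tested CYP1 to CYP4, 4 of 11 GST, 3 of 9 AKR and 3 of 4 SULT genes. The SULT2B1 call was lost with the replicate number as a block (adjusted p = 0.0504), by DESeq2 (0.108) and without 5 of the 6 libraries, each left out alone (0.0644 to 0.226). ALDH1A3, a retinaldehyde dehydrogenase, was at 234.2 ± 49.8 CPM in ATUX8H and 42.6 CPM in ATUX9D (log2 2.47, edgeR, adjusted p = 2.36e-12). ALDH2 was higher by 2.37, CYP39A1 by 2.89 and CYP4F12, a fatty acid hydroxylase, by 1.94. Without the third ATUX9D library the CYP39A1 value was 4.47. CES1 was lower in ATUX8H, with a log2 fold change of -0.71 ± 0.17 (0.0033), as were ALDH3A2 (-0.68), ALDH4A1 (-0.47) and CYP2E1 (-2.09), whose gene overlaps SCART1 on the same strand. The third library stood apart from the first and second in both ATUX clones: counts of ATUX8H repeats differed with a chi-square per degree of freedom of 3.61 between the first and second and of 26.7 and 27.4 with the third, and of ATUX9D repeats with 3.41, 18.6 and 22.9. For CES1 the third library was at 129.2 CPM in ATUX8H and 191.5 CPM in ATUX9D, above the repeats of its clone.

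Among the SMAP clones AKR1C1 was called in all 3 comparisons. It was higher in SMAP9C than in SMAP6G by 5.26 (edgeR, adjusted p = 8.59e-13), higher in SMAP8D than in SMAP6G by 3.52 (7.51e-09), and lower in SMAP8D than in SMAP9C, with a log2 fold change of -1.75 (2.36e-07). In SMAP8D against SMAP9C 12 members were higher and 13 lower, against 17.3% and 17.9% of all genes tested. In SMAP8D against SMAP6G 17 were higher and 10 lower, against 17.2% and 17.6%, and in SMAP9C against SMAP6G 13 were higher and 11 lower, against 20.0% and 19.7%. CYP39A1 was highest in SMAP9C, by 1.06 over SMAP6G (0.0027) and with -1.81 for SMAP8D against SMAP9C (2.37e-05). CES1 was also highest there, by 1.05 ± 0.20 over SMAP6G (0.00056), and its -0.60 for SMAP8D against SMAP9C (0.0234) was called in 6 of 10 alternative fits. Of the SMAP clones, SMAP6G held the most ALDH3A1, an antioxidant and corneal enzyme, with -2.59 for SMAP8D and -1.86 for SMAP9C against it, and the most CYP4X1 after SMAP8D (-0.76 for SMAP9C against SMAP6G).

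In Sor6G against Sor9H 6 members were higher and 15 lower, against 16% and 17.7% of all genes tested. The third Sor9H library also stood apart, with a chi-square per degree of freedom of 14.3 and 12.8 against the first and second and of 4.23 between those. ALDH1L1 was lower in Sor6G, with a log2 fold change of -4.60 (edgeR, adjusted p = 1.4e-10). CYP4F3 (-2.30), AKR1C1 (-1.90), CYP2U1, a long-chain fatty acid hydroxylase (-1.63), and AKR1C3 (-1.52) were also lower in Sor6G, whereas CYP4V2, an ocular fatty acid hydroxylase (2.01), and CYP2S1 (1.64) were higher. All 7 of these calls held with any 1 library left out. CYP4V2 overlaps KLKB1 on the same strand.

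Another 66 genes of xenobiotic metabolism, outside the 7 families, were examined as regulators, redox partners, other phase I enzymes and conjugation or cofactor enzymes, of which 47 were tested. In ATUX against SMAP 7 were higher and 3 lower, in ATUX against Sorafenib 5 higher and 12 lower, and in SMAP against Sorafenib 6 higher and 13 lower. Higher genes were 14.9%, 10.6% and 12.8% of those tested, beside 5.27%, 13.3% and 16.8% of all genes, and lower genes 6.38%, 25.5% and 27.7%, beside 5.06%, 12.5% and 17.7%. Regulators called against Sorafenib were mostly lower: of 12 tested, 0 were higher and 8 lower in ATUX clones, and 2 higher and 6 lower in SMAP clones. The lower ones were 66.7% and 50% of the 12, beside 12.5% and 17.7% of all genes, and the 0 higher for ATUX was also 0 at an unadjusted p under 0.05 and by DESeq2. AHR, the aryl hydrocarbon receptor, averaged 46.5 ± 10.3 CPM in ATUX clones, 62 ± 6.3 CPM in SMAP clones and 165.7 ± 9.4 CPM in Sorafenib clones, a difference from Sorafenib of -1.82 ± 0.19 in ATUX clones (edgeR, adjusted p = 0.003) and -1.42 ± 0.16 in SMAP clones (0.0021). NR1H3, the liver X receptor alpha, averaged 9.82 ± 3.14 CPM in ATUX clones, 10.1 ± 4.2 CPM in SMAP clones and 67.3 ± 14.7 CPM in Sorafenib clones. PPARA, PPARG, CEBPB and BACH1 were likewise called lower against Sorafenib in both ATUX and SMAP clones. CEBPA and RXRB were called lower in ATUX clones, but neither call held without ATUX8H, ATUX9D or Sor9H. The higher ones in SMAP clones were RXRA and KEAP1. The RXRA call was lost without any 1 of the SMAP or Sorafenib clones, and the KEAP1 call without SMAP9C, SMAP6G, Sor6G or Sor9H. The PPARA call for ATUX was lost without Sor9H (0.0621), and the CEBPB calls were lost without Sor6G (0.0603 for ATUX, 0.0528 for SMAP) or, for ATUX, without ATUX9D (0.0541).

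Among the other enzymes, AOX1, aldehyde oxidase, and PAPSS2, which makes the sulfate donor used by sulfotransferases, were low in SMAP clones. AOX1 averaged 19 ± 0.4 CPM in ATUX clones, 1.22 ± 0.60 CPM in SMAP clones and 13.4 ± 1.4 CPM in Sorafenib clones, and PAPSS2 averaged 44.9 ± 9.3, 7.96 ± 2.73 and 56 ± 2.9 CPM in the same order. AOX1 was higher in ATUX than in SMAP clones by 3.98 ± 0.38 (edgeR, adjusted p = 0.0066), and SMAP clones differed from Sorafenib clones by -3.46 ± 0.37 (0.0018). PON3, a lactonase, averaged 7.26 ± 5.90 CPM in ATUX clones, 0.102 ± 0.056 CPM in SMAP clones and 0.370 ± 0.062 CPM in Sorafenib clones, and was higher in ATUX clones by 6.16 ± 0.70 against SMAP (0.0089) and by 4.30 ± 0.75 against Sorafenib (0.0106), the second being lost without Sor6G (0.0594) or Sor9H (0.0793). CYB5B, an outer mitochondrial cytochrome b5, averaged 474.5 ± 82.8 CPM in ATUX clones, 238.7 ± 28.8 CPM in SMAP clones and 170.6 ± 33.8 CPM in Sorafenib clones and was called higher in ATUX against both, against SMAP not without ATUX9D, SMAP9C or SMAP6G (0.055 to 0.0769). DPYD, which degrades fluoropyrimidine drugs, averaged 23.1 ± 5.8 CPM in ATUX clones, 54.1 ± 6.8 CPM in SMAP clones and 74.7 ± 25.8 CPM in Sorafenib clones and was called lower in ATUX against both, against SMAP not without any 1 of the ATUX and SMAP clones (0.0541 to 0.113). FMO4, a flavin monooxygenase, was higher in SMAP than in Sorafenib clones by 4.40 ± 0.70 (0.0053), and NQO1, a quinone reductase, was lower than in Sorafenib clones in both ATUX (-0.70 ± 0.14, 0.016) and SMAP (-0.74 ± 0.13, 0.0067), the ATUX call being lost without ATUX8H (0.0503) or Sor9H (0.0776).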

How the data were processed

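RNA was measured in 21 libraries of 7 Panc-1 clones. Per the labels' protocols, poly-A RNA was sequenced with a stranded kit. Per the submitters' processing notes, build GRCh38 was used with the tools featureCounts 1.5.3, SAMtools 1.5, STAR 2.5.2b, Bowtie2 2.3.3.1 and cutadapt 1.15; how counting handled strand and reads fitting several genes is not given in the sources used here. Reads of antisense or overlapping genes may therefore be mixed. The deposited values are whole-number counts per gene, not normalized, and the gene length and GC percent columns were deposited by the authors with them; length gave CPM per kb and GC was not used.

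Counts were analysed in R 4.3.3 with edgeR 4.0.16 (trimmed mean normalization, filterByExpr, robust quasi-likelihood fit, two-sided, Benjamini-Hochberg over all genes tested), on clone sums between drugs and on single libraries between clones; SE is the absolute log2 fold change over the square root of F. The scripts were tested on simulated counts. Counting intervals and floors of 3 counts reflect counting error alone. Repeats within each clone differed by more than sampling noise. Correlations of deviations between same-numbered libraries were 0.122, 0.1538 and 0.2103 for ATUX8H and ATUX9D, all over 0.1, and no label gives a shared batch. Deviations were taken from the mean of a clone's 3 repeats. A shift shared by the third libraries alone would therefore also raise the values of the first and second. These values cannot tell such a shift from a pairing of every repeat number. Over all 63 pairs the correlations lay between -0.0763 and 0.2103, over 0.1 in 5, and no other pair of clones had all 3 over 0.1. Alternatives were DESeq2 1.42.0, its size factors in edgeR, no filter, libraries as samples, a replicate block, the ATUX repeats numbered 3 left out, and each clone or library left out. Named members were those with the largest called changes at 1 CPM or more (up to 10 per direction between drugs, 4 between clones), the 2 most abundant per family and CES1; those named beyond this rule, among them AKR1C1 between drugs, ALDH1A2, CYP4F22, CYP19A1, CYP7B1, CES4A, AKR1A1, CYP2R1 and NQO1, were chosen after their values were seen. Members and lists were chosen with earlier results of these data known.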

Additional observations from a re-analysis of the deposited data

How the results depend on the processing

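Counts of members called in the 5 clone comparisons stayed within 1.5 times the reported ones in every alternative. With the replicate block they were 33, 27, 29, 25 and 21 of 63, beside 34, 25, 27, 24 and 21 without it. Of all genes tested 46.7%, 35.7%, 35.6%, 40.5% and 34.5% were called with the block. In ATUX8H against ATUX9D the block ended the SULT2B1 call and changed no other call of a member. It fits 1 effect per repeat number over all 7 clones, so it cannot show what pairing the ATUX clones alone would change. Between drugs, the 21 libraries were also taken as samples, with 56 members tested. Then 36 members were called in ATUX against SMAP, 40 in ATUX against Sorafenib and 38 in SMAP against Sorafenib. Of all genes tested 53.4%, 66.2% and 70% were called in these fits. Adding the replicate block gave the same 36, 40 and 38, beside 52%, 65.2% and 68.8% of all genes. With clones as samples 12, 20 and 25 of 68 members were called, beside 10.3%, 25.8% and 34.5% of all genes. By construction, taking libraries as samples reads the repeats of a clone as independent. DESeq2 called 22 of the 108 members it fitted in ATUX against SMAP, beside 10.6% of all 32697 genes fitted. With 1 clone left out, counts ranged between 7 (without SMAP9C) and 11 in ATUX against SMAP, between 10 (without Sor9H) and 21 in ATUX against Sorafenib (12 without Sor6G), and between 12 (without Sor9H) and 27 in SMAP against Sorafenib (16 without Sor6G); where 1 clone of a drug remained, it was assumed to vary like the others, and fewer samples entered the fit. The share of all genes called was lower too in each of the fits with the lowest counts. Without SMAP9C it was 3.05% in ATUX against SMAP, beside 10.3% with all clones. Without the third ATUX libraries 12, 26 and 25 of 68 members were called, beside 10.1%, 26.1% and 34.2% of all genes. With no filter on low counts, the drug calls of ALDH2 and CYP27B1 in ATUX against SMAP, CES2, ALDH1L1 and CYP39A1 in ATUX against Sorafenib, and CYP2D6 and CYP4F3 in SMAP against Sorafenib were lost (adjusted p 0.055 to 0.112); the cause was not tested. Of the calls of named members, that of ALDH3A1 alone turned its sign, and values that were not called also crossed 0 in some alternatives. Called higher in ATUX8H than in ATUX9D (log2 3.37, or 5.99 without the second ATUX9D library), ALDH3A1 stood at -0.30 (adjusted p = 0.89) without the third ATUX8H library, which held 0.988 CPM where the first and second had 0 and 0.043 CPM. Depth limits the genes with few counts, such as AKR1C2, CYP19A1 and all UGT genes.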
